A study of Caenorhabditis elegans with 12 samples.

Results

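The 10 genes described here make up the β-catenin asymmetry pathway of *C. elegans* together with the β-catenins and axins related to it. They were the β-catenin genes *bar-1* (C54D1.6), *sys-1* (T23D8.9), *wrm-1* (B0336.1) and *hmp-2* (K05C4.6), the TCF/LEF gene *pop-1* (W10C8.2), the kinase gene *lit-1* (W06F12.1), the APC-like gene *apr-1* (K04G2.8), the axin genes *pry-1* (C37A5.9) and *axl-1* (K02B12.4), and the casein kinase gene *kin-19* (C03C10.1). They were chosen by sequence name, and every isoform entry was taken, which gave 17 of the 23953 entries of the count table, or 10 of 20188 genes. *lit-1* had 5 entries, *sys-1*, *apr-1* and *axl-1* had 2 each and the other genes had 1. Entries of a gene share reads and are not independent of each other.

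In seam cells, the stem-like cells of the larval epidermis, this pathway makes the daughters of a division differ. POP-1 with its coactivator SYS-1 switches target genes on in the posterior daughter, while WRM-1 and LIT-1 send POP-1 out of that nucleus, and APR-1, PRY-1 and KIN-19 take part in placing or removing the β-catenins. BAR-1 serves the canonical Wnt pathway, in which PRY-1 and AXL-1 act against it, and HMP-2 links cadherin to actin at adherens junctions.

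Transcripts of whole L3 larvae were counted 31 hr posthatching in 4 strains, with 3 libraries per strain. JR667 was the reference. It has wild-type *lin-22* and carries the integrated seam cell marker *wIs51* (*SCMp::GFP* with an *unc-119* rescue) and an *unc-119* mutation. MBA81 carries *lin-22(icb38)*, a deletion 2371 bp upstream of the ATG that also removes part of the neighbouring gene and is filled with *mca-3* sequence, with the same *wIs51* marker. OH4265 carries *lin-22(ot267)*, a premature stop codon, and OH4271 carries *lin-22(ot269)*, a C-to-T change at position -4940 relative to the ATG. The mutants are named by allele below. Both OH strains carry the marker *vtIs1* in place of *wIs51*, so in their comparisons with JR667 the allele and the marker background cannot be told apart. Each mutant is 1 strain. Nothing in the labels says that the libraries of a strain came from separate cultures, so p-values measure the spread between these libraries, which may be technical.

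Total counts ranged from 56479069 to 78920246 per library. *lin-22* itself (Y54G2A.1) had 342, 251 and 267 normalised read counts in JR667, 270, 107 and 198 in *icb38*, 356, 336.3 and 293 in *ot267*, and 167, 158 and 100.8 in *ot269*. Only the last strain passed the threshold against JR667 (log2 fold change -1.01, edgeR adjusted p = 0.0207). Markers of seam, hypodermis, germline, intestine, muscle and neurons were all detected, and the share of seam cells in the RNA was not measured. In such bulk RNA, fewer cells of a type and less RNA per cell cannot be told apart. Of the germline markers, 7 of 9 were lower in *icb38* than in JR667, as were 4 of 5 oocyte and embryo markers, against 8.55% of all entries. There 2 of 4 neuron and 1 of 4 muscle markers were higher, against 7.66% of all entries. In *ot267*, 2 of 4 hypodermis markers were lower and 0 higher, where 4.59% of all entries were lower. All 5 moulting-cycle markers were higher in *ot269*, against 12.9% of all entries.

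All 17 entries passed the filter on low counts, and 6 of the 10 genes, *sys-1*, *wrm-1*, *hmp-2*, *pop-1*, *lit-1* and *kin-19*, passed the test in no comparison with JR667. The genes that did were *bar-1* and *pry-1*, higher in *icb38* and *ot269*, and *apr-1*, higher, and *axl-1*, lower, in *ot269*. In *icb38* against JR667, 2 of 17 entries passed an adjusted p of 0.1 in edgeR's quasi-likelihood test, where 16.2% of all 19696 entries tested passed. Both were higher, and 7.66% of all entries were called higher. In *ot267* the number was 0 of 17 against 8.7% of all entries. DESeq2 called 1 entry there, against 12.9% of all entries. In edgeR's test 2 member entries had an unadjusted p under 0.05 there, and the share of all entries under that value was not counted. In *ot269* 5 of 17 entries passed in edgeR's test against 26.3% of all entries, with 4 higher (12.9% of all entries) and 1 lower (13.4%). With both directions together, the share of members was below the background in *icb38* and *ot267* and near it in *ot269*. The share called higher lay above the background in *icb38*, on only 2 entries, and in *ot269*, on 4 entries of 3 genes, as the *apr-1* entries share reads. Without replicate 1 of JR667, 0 entries passed in *icb38* and 2 in *ot269*. These small counts are therefore not read as a trait of the members.

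**Figure D1:**
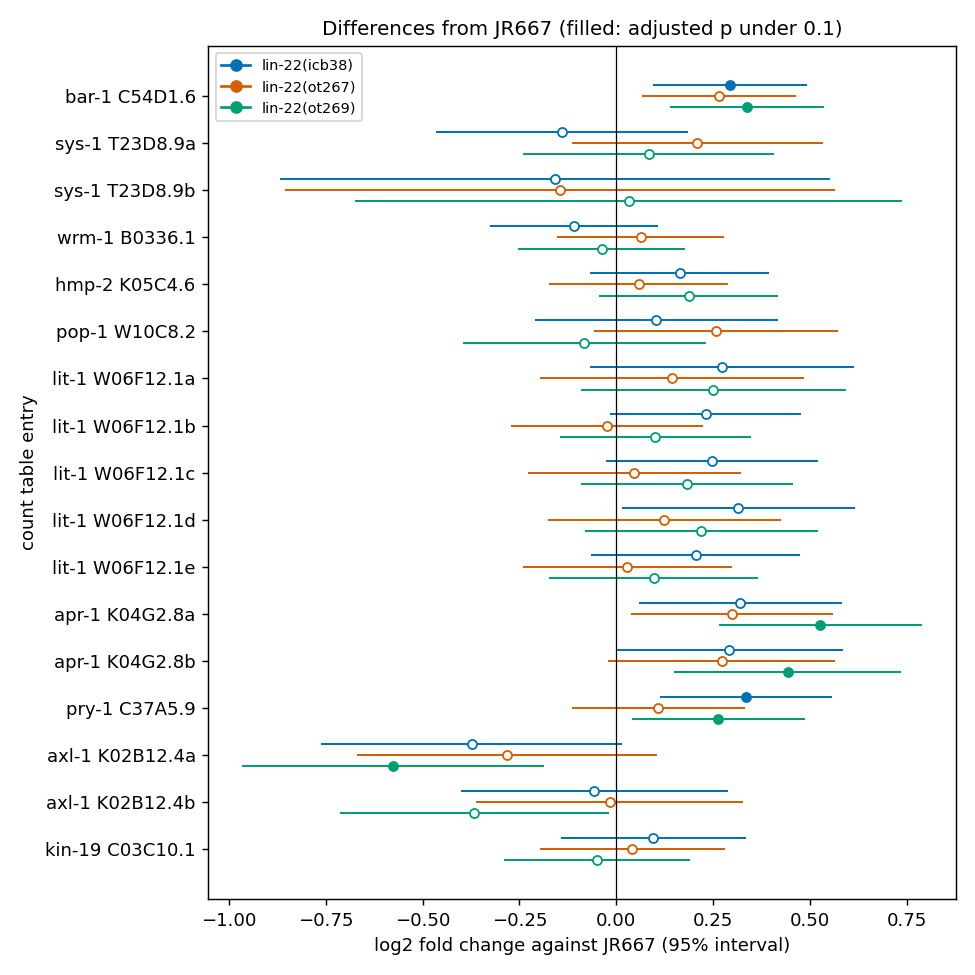
Log2 fold change of each of the 17 entries (vertical axis) against JR667 in the 3 *lin-22* mutants, with 95% intervals as lines and filled points where the edgeR adjusted p was under 0.1. Filled points stand at *bar-1* and *pry-1* in *icb38* and at *bar-1*, both *apr-1* entries, *pry-1* and K02B12.4a of *axl-1* in *ot269*, and *axl-1* alone is filled to the left of 0.

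Among the β-catenin genes, *bar-1* was the one that changed. Its normalised read counts were 1965, 2152 and 2062 in JR667, 2277, 2656 and 2640 in *icb38*, 2409, 2427 and 2584 in *ot267*, and 2583, 2514 and 2711 in *ot269*. Every mutant library lay above every JR667 library, while the mutants overlapped each other. The means were 2060 ± 93.5 in JR667 and 2603 ± 100.1 in *ot269* (SD, n = 3), a log2 fold change of 0.34 (SE 0.0932, edgeR adjusted p = 0.021). The rise in *icb38* was 0.29 (SE 0.0933, edgeR adjusted p = 0.0587), and the value in *ot267* was 0.26 (edgeR adjusted p = 0.122), which missed the threshold. The call in *ot269* was kept in all 6 fits that each left out 1 library, with values from 0.31 to 0.37. That in *icb38* was lost without replicate 1 or 3 of JR667 and without replicate 2 or 3 of *icb38*, as well as with library totals in place of size factors (edgeR adjusted p = 0.12) and with only the 6 libraries of both strains (edgeR adjusted p = 0.174, against 0.0178 with DESeq2). The coding gene *pgp-10* overlaps *bar-1* in the annotation and passed in no mutant, with log2 fold changes of 0.19, 0.16 and 0.26. Whether reads were counted by strand is not stated in the sources used here, so the share of its reads in the *bar-1* counts was not tested.

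*sys-1*, the β-catenin that binds POP-1, showed its largest spread within JR667. Its main entry, T23D8.9a, had 691, 1025 and 1085 normalised read counts in JR667, 821, 835 and 885 in *icb38*, 1110, 1013 and 1117 in *ot267*, and 960, 1135 and 872 in *ot269*. JR667 spanned the whole of *icb38*, and the *icb38* libraries lay below all those of *ot267*. Between these mutants the log2 difference was -0.35 (edgeR adjusted p = 0.152), which passed only with library totals in place of size factors (edgeR adjusted p = 0.0896) or with just the 6 libraries concerned (edgeR adjusted p = 0.0561). The germline markers, 9 genes, were all lower in the same comparison, with summed levels of 24741 to 35806 in *icb38*, 53758 to 59035 in *ot267*, 43529 to 50426 in *ot269* and 33022 to 60159 in JR667. None of the 9 was at 0, and their part in the *sys-1* values was not tested. T23D8.9b was the lower *sys-1* entry in every library, at 64.9 to 154 normalised read counts, and its ratio to T23D8.9a ranged from 0.0676 to 0.148.

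*wrm-1*, which acts with LIT-1 in the export of POP-1, had 1524, 1592 and 1733 normalised read counts in JR667 and 1431 to 1845 in the mutants. Its strain means stayed close, and every mutant overlapped JR667. The 95% intervals of its log2 fold change against JR667 ran from -0.33 to 0.11 in *icb38*, from -0.15 to 0.28 in *ot267* and from -0.25 to 0.18 in *ot269*. *hmp-2*, the junctional β-catenin, ranged from 2680 to 3422 in JR667 and from 2875 to 3775 in the mutants. Its log2 fold changes were 0.16, 0.06 and 0.19, with edgeR adjusted p from 0.25 to 0.803.

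*pop-1*, the single TCF/LEF gene of the worm, had 1453, 1926 and 2074 normalised read counts in JR667, 2013, 1843 and 2000 in *icb38*, 1886, 2019 and 2613 in *ot267*, and 1542, 1934 and 1673 in *ot269*. Replicate 1 of JR667 was the lowest of the 12 libraries and replicate 3 of *ot267* the highest. Against JR667 the log2 fold changes were 0.10, 0.26 and -0.08 (edgeR adjusted p = 0.71, 0.351 and 0.749). *ot269* against *ot267* gave -0.34 (unadjusted p = 0.036 and adjusted p = 0.211 in edgeR's quasi-likelihood test), which did not pass.

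*lit-1*, a Nemo-like kinase gene, was described by W06F12.1d, the entry with the highest mean. It had 1473, 2256 and 1715 normalised read counts in JR667, 2586, 2148 and 2038 in *icb38*, 2123, 1811 and 1997 in *ot267*, and 2171, 2080 and 2085 in *ot269*. Replicate 2 of JR667 lay among the mutants and the other JR667 libraries below all of them. With all libraries the log2 fold change in *icb38* was 0.32 (SE 0.14, edgeR adjusted p = 0.175). Without replicate 2 of JR667 it was 0.50 (edgeR adjusted p = 0.0233), and all 5 *lit-1* entries then passed in *icb38* and 3 in *ot269*. The 5 entries kept similar proportions: the ratio of W06F12.1a to W06F12.1d was 0.919 to 1.07 over the 12 libraries, and that of W06F12.1c was 0.592 to 0.715.

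**Figure D2:**
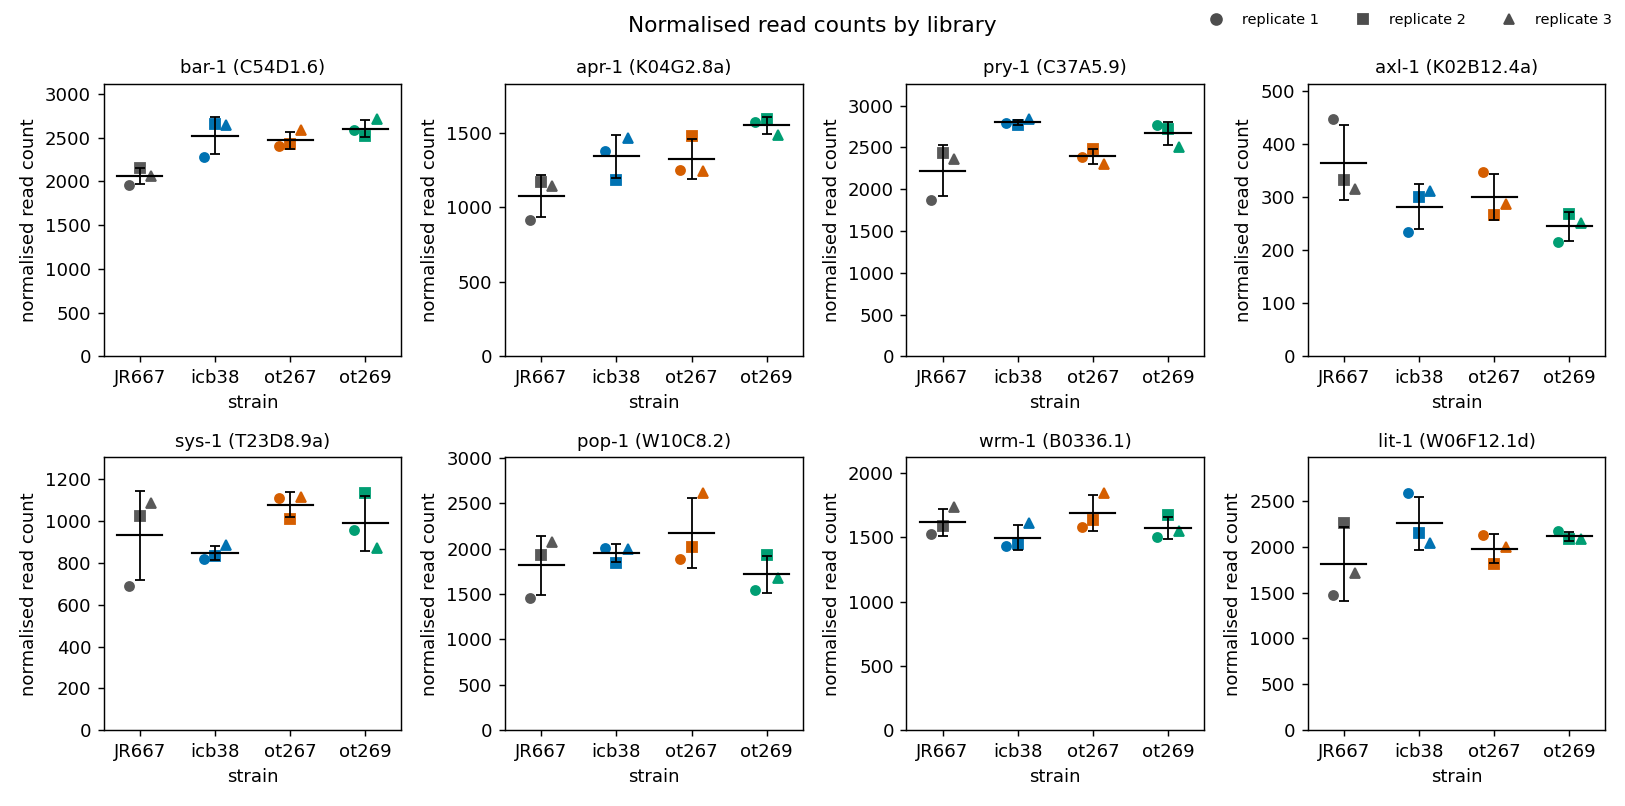
Normalised read counts (vertical axis, from 0) of 8 member entries in the 12 libraries by strain (horizontal axis), with marker shapes for replicates 1 to 3, a long bar for the mean and whiskers for 1 SD (n = 3). In the *bar-1* panel all mutant libraries stand above JR667, the *apr-1* libraries of *ot269* stand above the other strains, and replicate 1 of JR667 is the lowest of its strain in 7 of the 8 panels and the highest in *axl-1*.

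Of the regulators of β-catenin, *apr-1* had the largest rise. K04G2.8a had 911, 1172 and 1141 normalised read counts in JR667, 1378, 1183 and 1462 in *icb38*, 1249, 1475 and 1242 in *ot267*, and 1572, 1589 and 1484 in *ot269*. All 9 mutant libraries lay above JR667, and those of *ot269* also lay above every other library. The log2 fold change in *ot269* was 0.53 (SE 0.122, edgeR adjusted p = 0.00829), and it was 0.42 to 0.59 in the 6 fits that each left out 1 library, all of which kept the call. In *icb38* it was 0.32 and in *ot267* 0.30, and neither passed (edgeR adjusted p = 0.113 and 0.182). K04G2.8b, which shares reads with it, rose by 0.44 in *ot269* (edgeR adjusted p = 0.0361), and that call was lost without replicate 1 of JR667 and without replicate 3 of *ot269*. The coding gene K04G2.9, which overlaps *apr-1* in the annotation, had log2 fold changes of -0.13, -0.04 and -0.15 and passed in no mutant. In *ot269* the 5 moulting-cycle markers had summed levels of 156865 to 178291, against 69393 to 95201 in JR667, 81343 to 98896 in *icb38* and 69125 to 91561 in *ot267*. No moulting-cycle marker was at 0, and their part in the *apr-1*, *bar-1*, *pry-1* and *axl-1* differences of *ot269* was not tested.

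*pry-1*, an axin gene that holds BAR-1 down, had 1870, 2428 and 2367 normalised read counts in JR667, 2792, 2773 and 2837 in *icb38*, 2390, 2486 and 2308 in *ot267*, and 2772, 2720 and 2509 in *ot269*. The 3 *icb38* libraries were the highest of the 12, and those of *ot267* overlapped JR667. The log2 fold changes were 0.33 in *icb38* (SE 0.104, edgeR adjusted p = 0.0546) and 0.26 in *ot269* (SE 0.104, edgeR adjusted p = 0.093). Leaving out replicate 1 of JR667, the lowest *pry-1* library, ended both calls, and so did leaving out any library of the mutant concerned. With only the 6 libraries of the strains compared, the adjusted p in edgeR was 0.17 in *icb38* and 0.163 in *ot269*. The call in *ot269* was also lost without replicate 3 of JR667 and with no filter beyond 1 count (edgeR adjusted p = 0.115). In *icb38* the 4 neuron markers had summed levels of 18107 to 20174, against 13931 to 15937 in JR667, 13280 to 14275 in *ot267* and 15259 to 16078 in *ot269*. The 5 oocyte and embryo markers summed to 1088 to 3353 in *icb38* and 2008 to 3090 in JR667. No neuron marker was at 0, and *vit-2* of the oocyte and embryo list was at 0 in 2 *ot269* libraries. The part of the neuron, germline and oocyte markers in the *bar-1* and *pry-1* differences of *icb38* was not tested.

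*axl-1*, the second axin-like gene, was the only member with a call to the lower side. K02B12.4a had 447, 333 and 316 normalised read counts in JR667, 234, 300 and 312 in *icb38*, 348, 266 and 287 in *ot267*, and 215, 268 and 252 in *ot269*. Both upstream mutants lay below JR667, by a margin of a few counts in *icb38*, and *ot267* overlapped it. In *ot269* the log2 fold change was -0.58 (SE 0.182, edgeR adjusted p = 0.0396). Without replicate 1 of JR667 it was -0.40 (edgeR adjusted p = 0.155), and without replicate 1 of *ot269* -0.49 (edgeR adjusted p = 0.149). With library totals it was -0.45 (edgeR adjusted p = 0.12). K02B12.4b had -0.37 in the same mutant and did not pass (edgeR adjusted p = 0.131). The ratio of K02B12.4a to K02B12.4b was 0.945, 0.832 and 0.847 in JR667, 0.688 to 0.72 in *icb38* and 0.704 to 0.773 in *ot267*, below all JR667 libraries, and 0.627 to 0.864 in *ot269*, which overlapped them. Both entries share reads and this ratio was not tested. How often ratios of other isoform entries separate in this way was not counted.

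*kin-19*, a casein kinase Iα gene, had 14848, 18243 and 19125 normalised read counts in JR667 and 16610 to 20974 in the mutants. No mutant stood apart from JR667. The log2 fold changes were 0.10, 0.04 and -0.05, with 95% intervals that together ran from -0.29 to 0.33.

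By library position alone, 4 of the 17 entries did not overlap between *icb38* and JR667, where 28.1% of all entries did not, 2 in *ot267* against 23.5%, and 6 in *ot269* against 39.7%. *bar-1* and K04G2.8a were among them in each mutant. The median log2 fold change of the 17 entries was 0.20 in *icb38*, 0.06 in *ot267* and 0.10 in *ot269*, where the median of all entries was 0.01 each time. Without replicate 1 of JR667 the median of the 17 was 0.0714, -0.00474 and -0.00247 in the same order, and without its replicate 2 it was 0.324, 0.191 and 0.258. Replicate 1 was the lowest library of JR667 for 15 of the 17 entries and the highest for both *axl-1* entries. Over all entries it was the lowest for 39.6% and the highest for 40.5%. Its germline marker sum was also the lowest of JR667, at 33022 beside 47504 and 60159. So were its muscle sum (537535 beside 915417 and 794341), its intestine sum (146966 beside 181725 and 175022) and its oocyte and sperm sums. Its seam sum was the highest, at 2346 beside 2229 and 1488, and its hypodermis, neuron and moulting-cycle sums lay between the others. Their part in the member values was not tested. Without replicate 1 of JR667, 0 of 17 entries passed in *icb38*, where 15.7% of all entries did, and 2, *bar-1* and K04G2.8a, in *ot269*, where 24.5% did. Without replicate 2 of JR667 the counts were 8 and 8, against 17.4% and 24.7% of all entries, with 5 of the 8 from *lit-1* in *icb38* and 3 in *ot269*. Leaving out replicate 1, 2 or 3 of *icb38* gave 1, 1 and 0 entries there, against 12.8%, 11.5% and 9.95% of all entries.

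**Figure D3:**
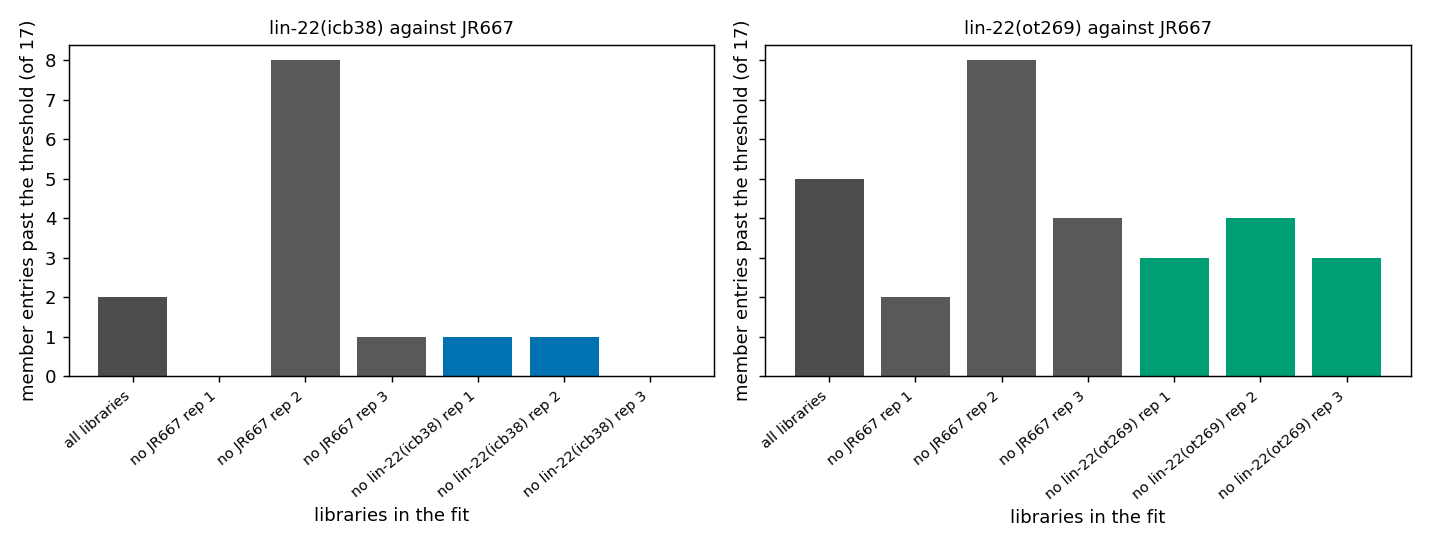
Number of member entries past the threshold (vertical axis, of 17) in fits with all libraries and with 1 library left out (horizontal axis), for *icb38* and *ot269* against JR667. The counts run from 0 to 8 and from 2 to 8, with both extremes reached when a JR667 library was left out. In *icb38* the count was also 0 without its own replicate 3.

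With the main settings no member passed between mutants. *sys-1* T23D8.9a passed in *icb38* against *ot267* only with library totals or with just the 6 libraries compared. No entry passed in *ot269* against *ot267*, which share the *vtIs1* marker and where 9.93% of all entries passed, and 2 had an unadjusted p under 0.05 in edgeR's test. The number was also 0 in *icb38* against *ot267* (18.1% of all entries, 3 members at an unadjusted p under 0.05) and in *ot269* against *icb38* (18.3%, with 0). DESeq2 called 0 in each of these comparisons. The difference of K04G2.8a between *ot269* and *ot267* was 0.23, so its call against JR667 in one and not in the other does not show that they differ. In the test across the 4 strains together, 3 of 17 entries passed, where 34.9% of all entries did: K04G2.8a (edgeR adjusted p = 0.0303), *bar-1* (edgeR adjusted p = 0.0483) and *pry-1* (edgeR adjusted p = 0.0801). The call of K04G2.8a was kept with any library left out, that of *bar-1* was lost without replicate 3 of JR667 or of *ot269*, and that of *pry-1* was lost in 7 of 12 such fits.

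For pairs of members whose products act together or are of one family, 5 ratios of counts were formed within each library, where library scaling cancels. Protein amounts were not measured. A ratio of counts between genes also holds their transcript lengths, so only its change between libraries can be read. The ratios were chosen with earlier results of these data known, so their p-values are not those of ratios fixed in advance. The adjustment over the 5 ratios does not cover that choice. The ratio of *apr-1* to *pry-1* was 0.487, 0.483 and 0.482 in JR667, 0.494, 0.427 and 0.515 in *icb38*, 0.522, 0.593 and 0.538 in *ot267*, and 0.567, 0.584 and 0.591 in *ot269*. All *vtIs1* libraries lay above all *wIs51* libraries, and the marker cannot be told apart from the alleles that come with it. Among the 4 strains the exact permutation test on the log2 ratios, over 369600 arrangements of the libraries, gave p = 0.00942, and 0.0471 when adjusted over the 5 ratios. The adjusted p of this exact test was 0.103 without replicate 1 of JR667, 0.106 without its replicate 3, and 0.129 and 0.13 without replicates 2 and 3 of *ot269*.

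The ratio of *sys-1* to *pop-1*, whose balance sets the output of the pathway in a nucleus, was 0.476, 0.532 and 0.523 in JR667, 0.408, 0.453 and 0.443 in *icb38*, 0.588, 0.502 and 0.427 in *ot267*, and 0.623, 0.587 and 0.521 in *ot269*. *icb38* lay below every JR667 library and the other mutants overlapped them. The exact permutation test among the 4 strains gave p = 0.0656 (0.109 adjusted over the 5 ratios), and with the counts of all entries of each gene summed the adjusted p was 0.0668. Without replicate 1 or 3 of *ot267* it was 0.0357 and 0.0455. The ratio of *axl-1* to *pry-1* was 0.253, 0.165 and 0.158 in JR667, at most 0.153 in *icb38* and 0.116 to 0.124 in *ot269*. Both lay below JR667, with an exact permutation p of 0.0568 (0.109 adjusted, 0.0668 with summed entries, and 0.0357 without replicate 1 of *ot267*). The ratios of *lit-1* to *wrm-1* and of *bar-1* to *hmp-2* did not pass (exact permutation test, adjusted p = 0.199 and 0.367), though the first gave 0.0609 without replicate 2 of JR667.

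**Figure D4:**
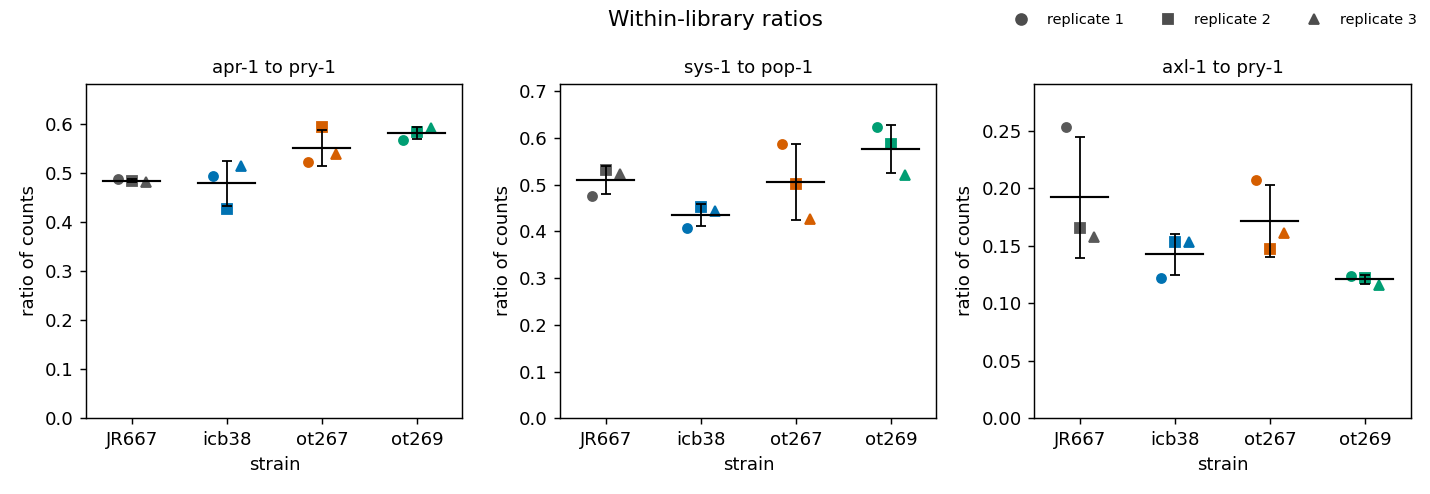
Within-library ratios of counts (vertical axis, from 0) of *apr-1* to *pry-1*, *sys-1* to *pop-1* and *axl-1* to *pry-1* by strain (horizontal axis), with a marker shape per replicate, the mean as a long bar and 1 SD as whiskers (n = 3). The *apr-1* to *pry-1* ratio is at most 0.515 in JR667 and *icb38* and at least 0.522 in the other strains.

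For the members that passed among the 4 strains, the entries with the most similar pattern over the 12 libraries were sought among 15403 entries of other genes, by Pearson's r of log2 counts. They were *kvs-5* (0.961), *tns-1* (0.946) and *rig-6* (0.94) for *bar-1*, *nhr-87* (0.964), *clc-8* (0.963) and *sesn-1* (0.949) for *apr-1*, and *pqn-65* (0.968), *hlh-30* (0.965) and *zfp-1* (0.962) for *pry-1*. Among the members, *hmp-2* and *pry-1* were the most alike (r = 0.867), and *apr-1* and *axl-1* the most opposed (r = -0.643). These values describe 12 libraries that share strains and scaling, and the highest of many are high by selection.

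Other genes of the pathway came from a list of which 36 genes were matched and tested. *imb-4*, also listed, was not matched and is not analysed here, and fits with a library left out were not read for the list. Of the 36, 7 were higher and 0 lower in *icb38*, where 7.66% of all entries were higher and 8.55% lower. In *ot267*, 1 was higher and 1 lower, against 4.1% and 4.59% of all entries, and in *ot269*, 9 were higher and 0 lower, against 12.9% and 13.4%. Of 7 ligand and secretion genes 2 rose in *ot269*, of 7 receptor genes 3 rose in each upstream mutant, and of 6 dishevelled and kinase genes none passed against JR667. The Wnt ligand gene *cwn-1* had 1188, 931 and 834 normalised read counts in JR667 and 2062, 1822 and 2061 in *ot269*, a log2 fold change of 1.01 (edgeR adjusted p = 0.000226), and *cwn-2*, another Wnt gene, rose there by 0.48 (edgeR adjusted p = 0.0263). In *icb38* *cwn-1* had 0.13 and did not pass. The Frizzled receptor gene *cfz-2* rose by 0.73 in *icb38* and 0.88 in *ot269* (edgeR adjusted p = 0.0276 and 0.00629), and *lin-17*, the Frizzled gene that acts in seam cell polarity, by 0.40 and 0.41 (edgeR adjusted p = 0.0418 and 0.0248). The ROR-type receptor gene *cam-1* rose by 0.34 and 0.36 (edgeR adjusted p = 0.086 and 0.0473). Of 10 genes listed as POP-1 targets 3 rose in each upstream mutant. The GATA factor gene *egl-18*, which keeps the seam fate, rose by 0.78 in *icb38* (edgeR adjusted p = 0.000725) and 0.61 in *ot269* (edgeR adjusted p = 0.00171). The nuclear receptor gene *nhr-25* rose in all 3 mutants, by 0.46, 0.63 and 0.93 (edgeR adjusted p = 0.0222, 0.00673 and 9.43e-05), and the Hox gene *lin-39* by 0.33 and 0.37 in the upstream mutants (edgeR adjusted p = 0.0805 and 0.0338). *tlp-1* was the one listed target that fell, with a log2 fold change of -0.36 in *ot267* (edgeR adjusted p = 0.0791). The coactivator gene *cbp-1* rose by 0.52 in *icb38* (edgeR adjusted p = 0.0437), and the α-catenin gene *hmp-1*, partner of HMP-2, by 0.33 in *ot269* (edgeR adjusted p = 0.0576). The seam marker list, of which *egl-18* is part, had 2 of 5 genes higher in *icb38* and 5 of 5 in *ot269*, with summed levels of 1488 to 2346 in JR667, 2821 to 3153 and 3414 to 3867 in those mutants and 1887 to 2317 in *ot267*. No seam marker was at 0, and the part of seam cell number in the member values was not tested.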

How the data were processed

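Total RNA of whole L3 larvae was made into stranded mRNA libraries. Bowtie2 alignments were turned by the authors into whole-number counts per transcript entry (bedtools), which they deposited unscaled. Tool versions, genome build and the strand setting of the counting are not given in the sources used here. A second deposited table, of counts normalised by DESeq, was not used. Symbols came from WBcel235 gene tables, which matched 23133 entries. The 182 entries of no gene (0.077% of counts) were not removed before scaling and testing. They were left out only of gene counts and of the search for similar patterns.

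Counts were scaled by RLE size factors, filtered with filterByExpr (count minimum 10) and tested with edgeR 4.0.16 (quasi-likelihood, R 4.3.3), in one fit of 12 libraries with a coefficient per strain. P-values were Benjamini-Hochberg adjusted over 19696 entries with a threshold of 0.1, and n is 3 libraries per strain. The SE and intervals come from this fit, which estimates the spread over all 12 libraries. They are not the spread of the strains compared alone. Normalised read counts are counts divided by these size factors. Ratios were compared with two-sided exact permutation tests. An exact test of 3 against 3 libraries cannot go below 0.1, so none was used for pairs of strains. The code was tested on simulated data. DESeq2 1.42.0 and other settings were alternatives. Every entry of the member genes is named, and up to 4 genes of each other list with the lowest adjusted p against JR667. Members, lists and ratios were chosen with earlier results of these data known. No pair of libraries of a strain agreed within sampling noise, so each was counted once.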

Additional observations from a re-analysis of the deposited data

How the results depend on the processing

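The counts of member entries past the threshold moved with several settings. With library totals in place of size factors, 1 entry passed in *icb38* against JR667, 2 in *ot267*, 8 in *ot269*, and 1 in *icb38* against *ot267*, where 15.2%, 10.3%, 28.4% and 18.2% of all entries did. That scaling moved the median log2 fold change of all entries from 0.0144 to 0.138 in *ot269* against JR667 and from -0.00623 to 0.114 against *icb38*, and it ended the *axl-1* K02B12.4a call there (edgeR adjusted p = 0.12), so the calls of that setting are relative to a shifted median. It also moved the share of all calls that were higher from 48.9% to 72.6% in *ot269* and from 47.2% to 67.3% in *ot267*. An adjusted p of 0.05 left 0 entries in *icb38* (10.5% of all entries), and so did the fit of only the 6 libraries compared (9.79%), which gave 1 entry in *icb38* against *ot267* (17.3%). DESeq2 called 1 entry in *ot267* (12.9% of all entries) and 5 across the 4 strains (42.9%), and one transcript per gene left 3 in *ot269* (26.8%), since K04G2.8b and K02B12.4a are not in that fit. Leaving out 1 library in turn gave 0 to 8 entries in *icb38*, 2 to 8 in *ot269* and 1 to 6 across the 4 strains, while 8.82% to 17.4%, 16.8% to 24.7% and 26.0% to 37.6% of all entries passed. The adjusted p of the ratio tests was 0.0192 to 0.13 for *apr-1* to *pry-1*, 0.0357 to 0.262 for *sys-1* to *pop-1* and likewise for *axl-1* to *pry-1*, and 0.0609 to 0.373 for *lit-1* to *wrm-1* (exact permutation tests, 1 library left out each), and with summed entries it was 0.0668 for *sys-1* to *pop-1* and for *axl-1* to *pry-1*. The causes of these changes were not tested.

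The replicate numbers did not pair the libraries, since deviations of same-numbered libraries correlated between -0.125 and 0.065. With the number as a replicate block, 2 member entries passed in *icb38*, 0 in *ot267*, 4 in *ot269* and 2 across the 4 strains. Over all entries 12.9%, 6.68%, 22.5% and 29.6% passed in the same order. In that setting *pry-1* was lost in *ot269* (edgeR adjusted p = 0.124) and across the strains (edgeR adjusted p = 0.12). The log2 difference of *sys-1* T23D8.9b between *icb38* and *ot267* turned to 0.0227 with the block.

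Of 102 pairs of an entry and a comparison, 38 changed sign under some setting, 71 times in all, and in none of these did either value pass the threshold. With library totals the turned log2 values follow. In *ot267* against JR667 they were 0.0565 for *lit-1* W06F12.1b, 0.0561 for *axl-1* K02B12.4b. In *ot269* against JR667 they were 0.086 for *wrm-1* B0336.1, 0.0433 for *pop-1* W10C8.2, 0.0752 for *kin-19* C03C10.1. In *icb38* against *ot267* they were -0.0406 for *bar-1* C54D1.6, -0.0539 for *apr-1* K04G2.8a, -0.0538 for *apr-1* K04G2.8b, -0.0289 for *kin-19* C03C10.1. In *ot269* against *icb38* they were 0.105 for *lit-1* W06F12.1a, 0.0622 for *lit-1* W06F12.1c, 0.0345 for *lit-1* W06F12.1d, 0.0139 for *lit-1* W06F12.1e, 0.0503 for *pry-1* C37A5.9. With 1 library left out, the lowest and highest log2 values of the pairs that changed sign follow. For *icb38* against JR667 they were -0.401 to 0.16 for *sys-1* T23D8.9b, -0.0364 to 0.209 for *pop-1* W10C8.2, -0.128 to 0.0449 for *axl-1* K02B12.4b, -0.00855 to 0.169 for *kin-19* C03C10.1. For *ot267* against JR667 they were -0.384 to 0.173 for *sys-1* T23D8.9b, -0.00381 to 0.116 for *wrm-1* B0336.1, -0.0315 to 0.138 for *hmp-2* K05C4.6, -0.0236 to 0.383 for *lit-1* W06F12.1a, -0.129 to 0.0947 for *lit-1* W06F12.1b, -0.0504 to 0.203 for *lit-1* W06F12.1c, -0.00474 to 0.308 for *lit-1* W06F12.1d, -0.106 to 0.191 for *lit-1* W06F12.1e, -0.000153 to 0.175 for *pry-1* C37A5.9, -0.172 to 0.0877 for *axl-1* K02B12.4b, -0.0595 to 0.115 for *kin-19* C03C10.1. For *ot269* against JR667 they were -0.0897 to 0.204 for *sys-1* T23D8.9a, -0.206 to 0.348 for *sys-1* T23D8.9b, -0.0831 to 0.0137 for *wrm-1* B0336.1, -0.217 to 0.0216 for *pop-1* W10C8.2, -0.00247 to 0.219 for *lit-1* W06F12.1b, -0.0359 to 0.258 for *lit-1* W06F12.1e, -0.149 to 0.0214 for *kin-19* C03C10.1. For *ot269* against *ot267* they were -0.035 to 0.45 for *sys-1* T23D8.9b. For *icb38* against *ot267* they were -0.00818 to 0.0995 for *bar-1* C54D1.6, -0.179 to 0.116 for *sys-1* T23D8.9b, -0.0453 to 0.108 for *apr-1* K04G2.8a, -0.084 to 0.128 for *apr-1* K04G2.8b, -0.173 to 0.0288 for *axl-1* K02B12.4a, -0.119 to 0.116 for *axl-1* K02B12.4b, -0.0402 to 0.111 for *kin-19* C03C10.1. For *ot269* against *icb38* they were -0.0245 to 0.0842 for *bar-1* C54D1.6, -0.0214 to 0.463 for *sys-1* T23D8.9b, -0.0339 to 0.059 for *hmp-2* K05C4.6, -0.0837 to 0.0479 for *lit-1* W06F12.1a, -0.163 to 0.0139 for *lit-1* W06F12.1d.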
